A study of Mus musculus with 2 samples.

Results

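The open regions described here lay in the large spaces between protein-coding genes of the mouse genome: 1410 regions on the 19 autosomes, each over 50 kb from the nearest end of a protein-coding gene and outside all such genes. They were chosen from ATAC-seq signal pooled over both libraries. In ATAC-seq the Tn5 transposase cuts and tags accessible DNA, and the 5′ end of a read marks a cut, called an end below. Windows of 200 bp with more pooled ends than their surroundings (Poisson p under 1e-05) were merged within 150 bp, and a region had to hold at least 20 ends summed over both libraries. The 1410 regions were 5.95% of the 23711 autosomal open regions with at least 20 ends and came from 36840 pooled open regions in all.

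Nuclei were taken from flash-frozen neural retina of adult mice of strain C57BL/6. The series examined whether DNA accessibility differs between wild-type mice and littermates with a knockout of Gabra3, the gene of the alpha3 GABA-A receptor subunit. A single library represents each genotype, built from 20000 nuclei and read as 75 bp single-end reads. The sources used here do not give the kind of Gabra3 allele, the age beyond adult, or whether a library pooled animals. Gabra3 lies on chromosome X, outside the autosomal regions described, so none of them checks the genotype label. With 1 library per genotype there was no test between genotypes: each ratio compares 2 libraries, and its 95% interval (exact, Clopper-Pearson) covers counting error only, not the variation between mice.

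Open DNA far from genes is known to hold enhancers, the start sites of long noncoding RNAs (lncRNAs) and the start sites of microRNA (miRNA) transcripts. Enhancers bind transcription factors and act on promoters over long distances, and in the retina such elements are known around regulators of photoreceptor identity, for which CRX and OTX2 bind a TAATCC core. A miRNA is cut from a longer transcript and pairs with target RNAs through its seed, bases 2 to 8. The GC box GGGCGG is the element bound by the SP family at many promoters.

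Mature miRNAs encoded within 25 kb of a distal open region are shown first, since these genes recur in the results; sequences are from RefSeq (GRCm38.p6), and capitals mark the seed. miR-9, abundant in neural progenitors and neurons, is encoded at Mir9-2 (chr13:83738814-83738885) in the space beyond Mef2c.
miR-9-5p: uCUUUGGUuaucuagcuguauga
The miR-181 family is encoded by a pair of adjacent genes whose mature 5p forms share the seed acauuca.
miR-181a-5p: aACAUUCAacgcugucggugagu
miR-181b-5p: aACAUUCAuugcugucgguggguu
The miR-30 family forms of the Mir30a and Mir30c-2 locus on chromosome 1 share the seed guaaaca.
miR-30a-5p: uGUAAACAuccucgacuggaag
miR-30c-5p: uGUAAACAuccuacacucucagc
The miR-29 forms of chromosome 6 share the seed agcacca.
miR-29a-3p: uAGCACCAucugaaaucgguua
miR-29b-3p: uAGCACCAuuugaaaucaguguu
The remaining miRNAs shown have seeds of their own; miR-125b is the vertebrate relative of lin-4.
miR-101a-3p: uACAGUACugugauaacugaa
miR-125b-5p: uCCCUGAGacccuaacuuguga
miR-138-5p: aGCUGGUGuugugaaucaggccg
miR-129-5p: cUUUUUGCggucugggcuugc

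Promoters of lncRNAs that coincided with strong distal regions are shown for their motifs. Each runs from 250 bases before to 50 bases after the RefSeq start (GRCm38.p6), read 5′ to 3′ along the gene, with capitals at GC boxes (GGGCGG) and TAATCC cores on either strand. The promoter of D130051D11Rik (plus strand, chr15:85634346-85634645), under the well placed region with most ends, held 5 GC boxes.
D130051D11Rik: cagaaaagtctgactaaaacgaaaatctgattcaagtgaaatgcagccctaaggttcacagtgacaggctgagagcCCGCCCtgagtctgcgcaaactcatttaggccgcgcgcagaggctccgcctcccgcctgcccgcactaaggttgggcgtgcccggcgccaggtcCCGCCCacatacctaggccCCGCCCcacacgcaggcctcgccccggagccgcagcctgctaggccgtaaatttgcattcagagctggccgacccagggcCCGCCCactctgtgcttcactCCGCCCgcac
That of Gm26901 (minus strand, chr1:7398047-7398346) also held 5.
Gm26901: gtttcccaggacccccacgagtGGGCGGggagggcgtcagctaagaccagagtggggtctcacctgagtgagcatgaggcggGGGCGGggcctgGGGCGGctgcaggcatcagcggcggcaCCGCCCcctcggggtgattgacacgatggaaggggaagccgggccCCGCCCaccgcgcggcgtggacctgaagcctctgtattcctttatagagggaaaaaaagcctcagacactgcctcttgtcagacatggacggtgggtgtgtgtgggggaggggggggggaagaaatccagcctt
E130102H24Rik (minus strand, chr4:101356199-101356498) starts near Mir101a, and its promoter held 3 GC boxes.
E130102H24Rik: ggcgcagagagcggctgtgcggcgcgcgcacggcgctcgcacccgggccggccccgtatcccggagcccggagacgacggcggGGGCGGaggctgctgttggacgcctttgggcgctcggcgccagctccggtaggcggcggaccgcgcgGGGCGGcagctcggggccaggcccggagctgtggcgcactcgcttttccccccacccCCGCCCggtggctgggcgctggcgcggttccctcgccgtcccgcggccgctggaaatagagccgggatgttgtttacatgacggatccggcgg
Gm36304 (minus strand, chr5:100217698-100217997) had no GC box and 2 TAATCC cores.
Gm36304: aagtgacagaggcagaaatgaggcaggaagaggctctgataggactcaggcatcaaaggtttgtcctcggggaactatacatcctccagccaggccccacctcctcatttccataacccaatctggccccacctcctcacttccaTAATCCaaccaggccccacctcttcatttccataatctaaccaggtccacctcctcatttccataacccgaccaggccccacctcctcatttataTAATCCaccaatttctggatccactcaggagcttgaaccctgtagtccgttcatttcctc

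Aligned reads numbered 9170838 for wild type and 9038110 for the knockout, which left 7635799 and 7646373 ends after poorly placed reads and repeats of a position and strand were set aside. Rod photoreceptor genes, markers of the labelled tissue, were open at a gene end: 9 of 10 had at least 20 ends summed over both libraries (851 wild-type and 792 knockout ends over the list). Other retinal lists reached that mark less often: 5 of 6 bipolar, 3 of 6 cone and 3 of 5 Müller glia markers. Amacrine, horizontal and ganglion cell markers did so in 5 of 10. Of the vascular markers 0 of 6 reached 20 ends and of the microglial markers 1 of 6, while 3 of 6 pigment epithelium markers (142 and 130 ends), 3 of 6 lens markers (237 and 239) and 4 of 6 liver and muscle genes (142 and 118) did. Single genes held most of these ends: Pmel, a melanosome gene, 104 and 88; Bfsp1, a lens filament gene, 175 and 173; and Ckm, a muscle creatine kinase gene, 85 and 66. Rpe65, which defines pigment epithelium, had 1 and 2 ends, Cryaa, a lens crystallin gene, 10 and 11, and the liver genes Alb and Apoa1 had 1 and 0, and 24 and 26. The part of other cell types in the distal regions was not tested.

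Not all distal regions could be placed with the same certainty. Of the 1410, 1351 (95.8%) had no read under mapping quality 10, the aligner's score for how unique a position is. In 48 regions at least 5% of the reads fell under that score, and these held 10.35% of all distal ends. They included 13 regions at the start of the assembled chromosome 9 (chr9:2999951-3036200; 402 wild-type and 433 knockout ends), 5 on chromosome 14 and 3 on chromosome 2 (chr2:98662151-98667450; 1209 and 1222 ends). The region with most ends of all, chr2:98666151-98667450 with 696 and 694, was among them, and 95.3% of its well placed reads repeated a position and strand. A further 4 regions lay within 5 kb of Rn18s-rs5, a ribosomal RNA pseudogene on chromosome 17, with 1215 and 1097 ends. The other 1358 regions are called well placed below.

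Distal regions became sparser with distance from genes. Sequence over 50 kb from a protein-coding gene made up 866 Mb in 2510 gaps, and it held 1.63 open regions per Mb (95% Poisson interval 1.54 to 1.72). Intergenic sequence within 50 kb of a gene held 7.05 per Mb (6.83 to 7.27), and gene bodies 8.21 (8.03 to 8.39). Their counts leave out the 10112 regions within 1 kb of a gene end, but their lengths include the sequence near gene ends. Both values are therefore lower than with those regions counted. Within the distal space the density was 3.69 per Mb (3.33 to 4.08) at 50 to 75 kb, 1.93 (1.68 to 2.20) at 100 to 150 kb, 0.995 (0.838 to 1.17) at 300 to 500 kb and 0.379 (0.250 to 0.552) over 1000 kb. The intervals of the first and last of these bins do not overlap, and each of the 8 distance bins had a lower density than the one before it.

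**Figure D1:**
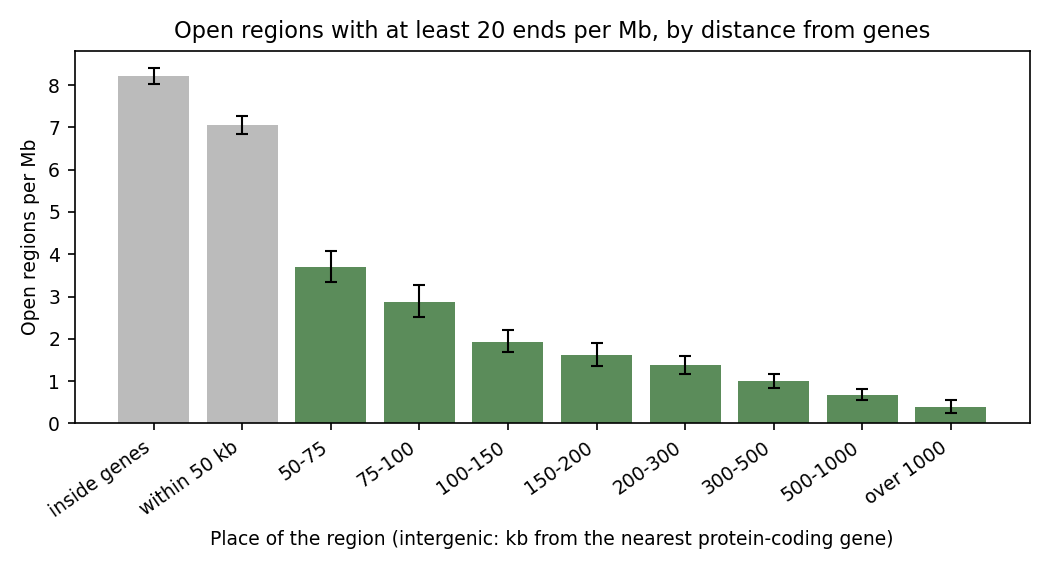
Open regions with at least 20 ends per Mb of sequence (y axis) inside genes, within 50 kb of a gene and in 8 bins of distance from the nearest protein-coding gene (x axis, kb); bars are densities and error bars exact 95% Poisson intervals. The bars inside genes and within 50 kb leave out regions within 1 kb of a gene end, while the sequence there is kept. The density falls from 3.69 per Mb at 50 to 75 kb to 0.379 over 1000 kb.

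The median distance to a gene was 118 kb (quartiles 72.4 and 254 kb), and 796 regions (56.5%) lay over 100 kb out. In gaps over 500 kb long lay 721 regions (51.1%), although these gaps made up 75.6% of the distal space. The farthest region lay 2187 kb from Pik3c3, a lipid kinase gene, with 34 wild-type and 29 knockout ends. Others lay 1988 kb from Olfm4 (12 and 16 ends) and 1595 kb from Pcdh10, a protocadherin gene (11 and 14 ends). Among regions over 500 kb out and well placed, that with most ends was chr8:73353151-73353950, 589 kb from F2rl3, with 156 and 197 ends. The regions at the limits of the choice were much like their neighbours outside it: 105 regions at 50 to 55 kb had a median of 34 ends and 89 at 45 to 50 kb a median of 37. At the other limit, 209 regions had 20 or 21 ends, and a further 266 distal regions with 18 or 19 ends were not taken.

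Most distal regions were weak. Their median was 31 ends (quartiles 23 and 47) over a median width of 450 bp, a density of 73.3 ends per kb, against 87.3 for regions 1 to 50 kb out, 93.3 inside genes and 196 within 1 kb of a gene end. At least 100 ends were found in 112 distal regions (7.94%), in 11.9% of those 1 to 50 kb out and in 66.7% of those at gene ends. All classes had to pass the same minimum of 20 ends. Averaged around the middle of the region, distal signal was a narrow peak on a low floor: 85.7 ends per kb and region in the 50 bp next to the middle in wild type and 78.5 in the knockout.

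**Figure D2:**
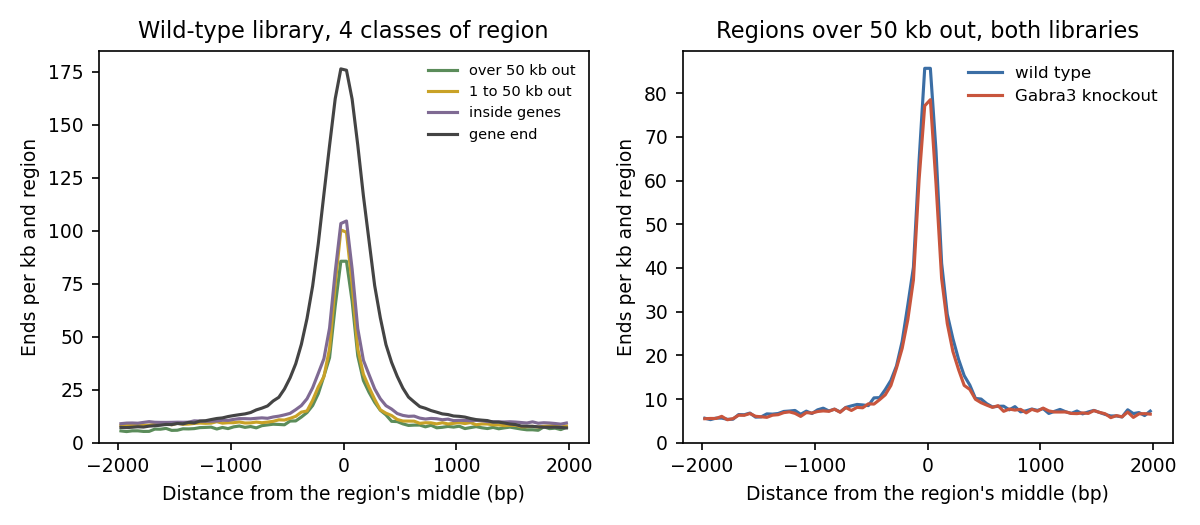
Ends per kb and region (y axis, not scaled for depth) against distance from the region's middle (x axis, bp) for 4 classes of region in the wild-type library (left) and for the distal regions in both libraries (right). The distal peak is the lowest of the 4, at 85.7 ends per kb in wild type and 78.5 in the knockout.

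The strongest well placed regions held more ends than the median gene-end region, which had 154, and several lay over noncoding genes. The region chr15:85634251-85635250, 52.4 kb from Wnt7b, a secreted signal, held 331 wild-type and 329 knockout ends and covers the start of D130051D11Rik printed above. Next came chr15:68362651-68363800, 104 kb from Zfat, a zinc-finger gene, with 235 and 248 ends. A region 109 kb from Ogfrl1 had 218 and 217 ends. All 3 were nearly equal between libraries.
The region chr7:73617901-73619050, 76.2 kb from the chromatin remodeller gene Chd2, had 200 wild-type and 176 knockout ends. That over the start of Gm26901, 224 kb from Pcmtd1, had 168 and 190. A region 236 kb from Myt1l, a neuronal zinc-finger factor, had 170 and 145 ends. Of the 15 well placed regions with most ends, the region near F2rl3 had the ratio farthest from 1: its log2 ratio (knockout over wild type) was 0.39 (0.09 to 0.71). Single-region ratios here and below are scaled to the ends in all autosomal open regions, with a pseudocount of 0.5 added to each count.

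Noncoding genes were found beside a share of the distal regions. An end of a noncoding gene lay within 1 kb of 159 regions (11.3%), of which 141 were beside an lncRNA, while such stretches made up 2.92% of the distal space. A noncoding gene body overlapped 378 regions (26.8%), against 13.5% of the space. The shares of space count bases, while a region counted when any of its bases qualified, so the measures are not alike. Counted by region, a noncoding gene end lay within 1 kb of 12.1% of all 23711 regions and 17.4% of those 1 to 50 kb out. A noncoding gene body overlapped 14.7% and 25.4% of these. By this measure the distal share at noncoding gene ends was not raised. Well placed regions at noncoding gene ends had a median of 38.5 ends and 16.7% of them had at least 100. Those outside noncoding genes had a median of 29 ends, with 5.02% at 100 or more. Counting the distance to every gene of the table, noncoding genes and pseudogenes included, 301 of the 1410 were still over 50 kb from any gene.

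Few promoters of distal noncoding genes coincided with a region of at least 20 ends. Of 3280 RefSeq promoter windows of distal noncoding genes, 64 (1.95%) overlapped a distal open region, and 56 regions (3.97%) accounted for them. Distal regions covered 0.0765% of the distal space, but that is a share of bases, while a window counted when any of its bases overlapped. The open windows were richer in GC, at a median of 53.7% over the 59 in well placed regions, than all 3280, at 45.7%. The GC box GGGCGG stood in 21 of the 64 open windows (32.8%), in 6.86% of all distal noncoding windows and in 36.0% of the 31396 autosomal promoter windows. The TAATCC core stood in 10 of 64 (15.6%), against 9.12% and 7.06%, and the E-box CAGATG in 7 of 64 (10.9%), against 22.9% and 17.2%. Both strands were searched, and a match is a description of letters, not of binding. Windows of 1 gene can overlap, and those of Gm33195 counted the same TAATCC site more than once. Unlike the GC median, the motif counts include windows in poorly placed regions.
Several open windows showed close values in both libraries. The region over the start of Gm34507, 85.4 kb from the chromatin remodeller gene Arid1b, had 131 wild-type and 136 knockout ends, and its window held 6 GC boxes. Dleu2, an lncRNA gene, had 54 and 49 ends and 6 GC boxes in its window. Gm36304, with its pair of TAATCC cores, had 78 and 64.

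Genes of miRNAs stood near distal open regions. Of 156 miRNA genes in the distal space, 26 (16.7%) lay within 10 kb of a distal region and 31 (19.9%) within 25 kb. Stretches within those distances of a region made up 2.85% and 6.19% of the distal space. Neighbouring miRNA genes can share a region, so these counts are not independent. Mir9-2 and Mir124a-1 had 8 regions each within 25 kb and Mir124a-2 had 4, all well placed. The loci of miR-9 and of miR-124, an abundant neuronal miRNA, are given in full.
Around Mir9-2 there were 8 regions in 24.6 kb, with 479 wild-type and 476 knockout ends in all. The strongest, chr13:83744751-83745600, had 179 and 160 ends, and chr13:83730601-83731450, inside the lncRNA gene C130071C03Rik, had 135 and 159. A weak region of 18 and 15 ends covered the miRNA gene itself. The sum was equal within counting error, with a log2 ratio of 0.05 (-0.14 to 0.24).
Around Mir124a-2 there were 4 regions with 392 wild-type and 390 knockout ends, a log2 ratio of 0.05 (-0.15 to 0.26). The strongest lay beside an end of Gm30340 (145 and 156 ends) and in the host gene Mir124-2hg (153 and 145). Around Mir124a-1, whose host transcript is known as Rncr3, there were 10 regions within 60 kb with 522 and 465 ends, a log2 ratio of -0.11 (-0.29 to 0.08). Here 8 of 10 ratios were below 0, and the strongest region had 138 and 130 ends beside Mir124a-1hg.

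**Figure D3:**
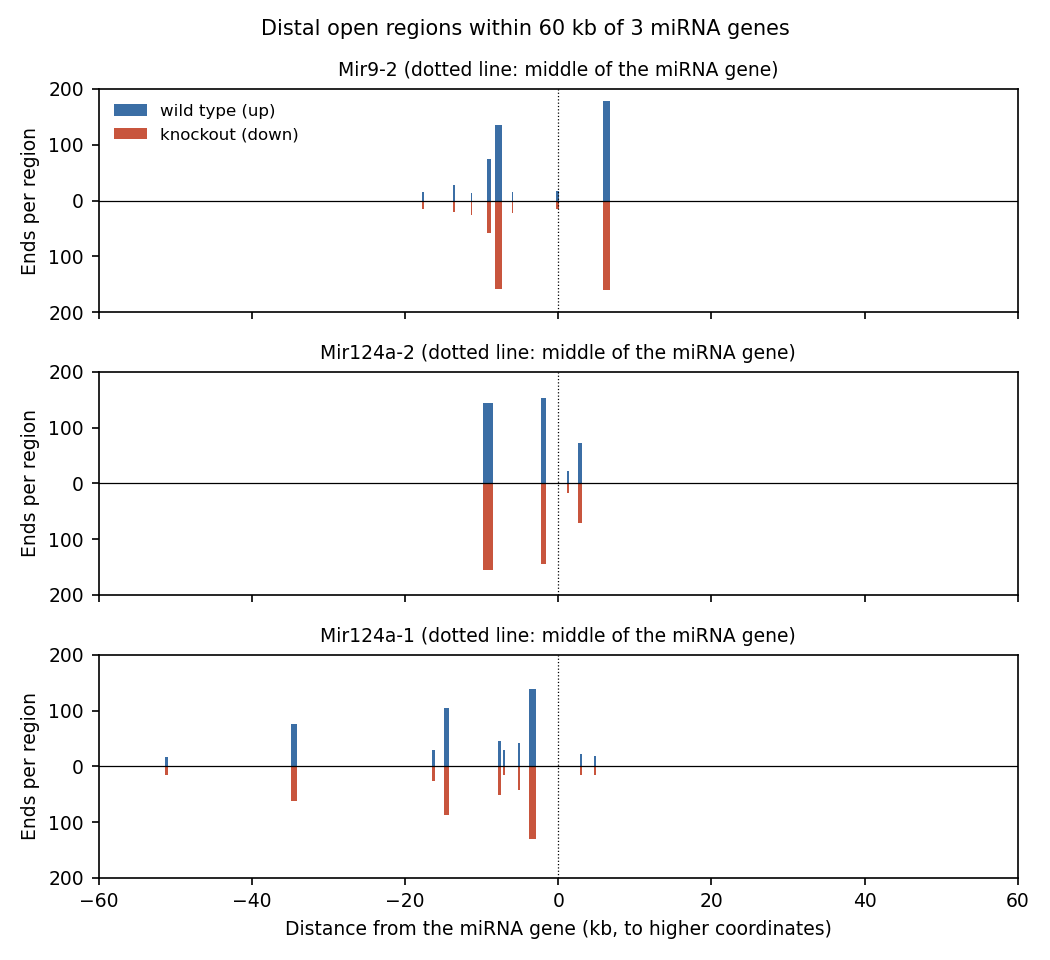
Ends per distal open region (y axis, wild type upward and knockout downward) against the distance of the region's middle from the miRNA gene (x axis, kb) at Mir9-2, Mir124a-2 and Mir124a-1; bar width is the region's width. Strong regions have like heights in both libraries, as 6.33 kb beyond Mir9-2 with 179 and 160 ends, while weak ones differ more, as on the low-coordinate side of Mir124a-1 with 30 and 15.

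Apart from these loci and from Mir101c, miRNA genes with any distal region within 25 kb had 1 to 5. Mir3089 had 5, with 202 wild-type and 214 knockout ends, and Mir5127 had 5, with 115 in each library. The region near Zfat named above, the strongest within 25 kb of any miRNA gene, lay 21.4 kb from Mir30d with 235 and 248 ends, and the 2 regions within 25 kb of Mir30a held 233 and 222.
Some of the weaker regions differed more between the libraries. The region 2.31 kb from Mir181a-1 and 2.49 kb from Mir181b-1 (chr1:137963651-137964150) held 28 wild-type and 8 knockout ends, a log2 ratio of -1.69 (-3.09 to -0.58). It was the lowest ratio among the regions nearest to a miRNA gene within 25 kb, and it was picked out after its values were seen. The region 4.60 kb from Mir30c-2 had 15 and 5 ends (-1.44, -3.34 to 0.01).
The E130102H24Rik promoter region, 8.92 kb from Mir101a, had 126 wild-type and 90 knockout ends, a log2 ratio of -0.42 (-0.83 to -0.02). The region 12.6 kb from Mir29b-1 had 38 and 27 (-0.43, -1.20 to 0.32). The remaining 3 printed miRNAs had more knockout than wild-type ends at their nearest region, each with an interval that spans 0. These were Mir125b-2 with 15 and 19 ends, Mir138-1 with 17 and 25, and Mir129-2 with 14 and 16. Mir101c had 10 regions within 25 kb, in the poorly placed stretch of chromosome 9.

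Distal regions were sorted by their nearest protein-coding gene, which need not be the gene they act on. The 1410 regions fell to 855 of the 4115 genes that border distal space, and 566 of these genes had 1 region. Regions also came in groups: 168 of 1391 neighbouring pairs (12.1%) lay within 10 kb of each other. Galr1, a galanin receptor gene, had 11 regions at 340 to 575 kb, with 296 wild-type and 286 knockout ends, and Cypt12 had 10, of which 4 were those around Mir124a-2. Kif13b, a kinesin gene beside Mir124a-1, had 9 (506 and 450 ends).
Of 11 gene lists, the 20 regulators of photoreceptors stood highest among those with over 1 Mb of distal space. They had 24 regions in 3.60 Mb, 6.66 per Mb (4.27 to 9.91), against 1.63 per Mb for all distal space, and these regions were near 7 of the 14 listed genes that border it. Mef2c, a MADS-box factor active in photoreceptors, had 10 regions with 510 wild-type and 511 knockout ends. Of these, 8 were those around Mir9-2, with 479 and 476 ends. The interval of the list's density takes regions as independent, which grouped regions need not be. Thrb, the thyroid hormone receptor that directs cone opsin choice, had 6 with 118 and 114. Otx2, needed for photoreceptor and bipolar fate, had 4 with 190 and 178, the strongest at chr14:48740901-48741700 with 124 and 117. Casz1, Prdm1, Rarb and Foxn3 had 1 each. Over the list the ratio was 0.03 (-0.11 to 0.17), and none of the 24 differed by 2-fold, where 4.33% of all distal regions were 2-fold lower and 1.91% higher.
The other lists with over 1 Mb of distal space had fewer regions per Mb. No list density, that of the photoreceptor regulators included, is adjusted for distance from the gene. Over all distal space the density fell from 3.69 per Mb at 50 to 75 kb to 0.379 over 1000 kb. The part of distance in the differences between lists was not tested. Adhesion and guidance genes, which border large gaps, had 48 regions in 84.7 Mb, 0.567 per Mb (0.418 to 0.751), of which 44 were well placed. Eye-field regulators had 2 in 7.97 Mb (0.251, 0.0304 to 0.906), and amacrine, horizontal and ganglion cell regulators 8 in 8.27 Mb (0.967, 0.418 to 1.91). Müller glia and progenitor genes had 8 at 1.46 per Mb (0.630 to 2.87), secreted signals 6 at 0.786 (0.288 to 1.71), regulators of other lineages 3 at 0.625 (0.129 to 1.83) and bipolar regulators 1. Past 2-fold, 3 adhesion and guidance regions were lower and 1 higher, and 2 regions of the amacrine list, 1 of the Müller list and 1 of the secreted signals were lower. Among the GABA-A subunit genes, Gabra2 alone had a region, with 19 wild-type and 12 knockout ends (-0.58, -1.78 to 0.51). Rod and cone phototransduction genes had 1 region each, near Pdc (13 and 8 ends) and Slc24a2 (14 and 10). Their genes bordered 0.143 and 0.249 Mb of distal space, so the densities of 6.999 (0.177 to 39.0) and 4.02 (0.102 to 22.4) per Mb each rest on a single region.

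**Figure D4:**
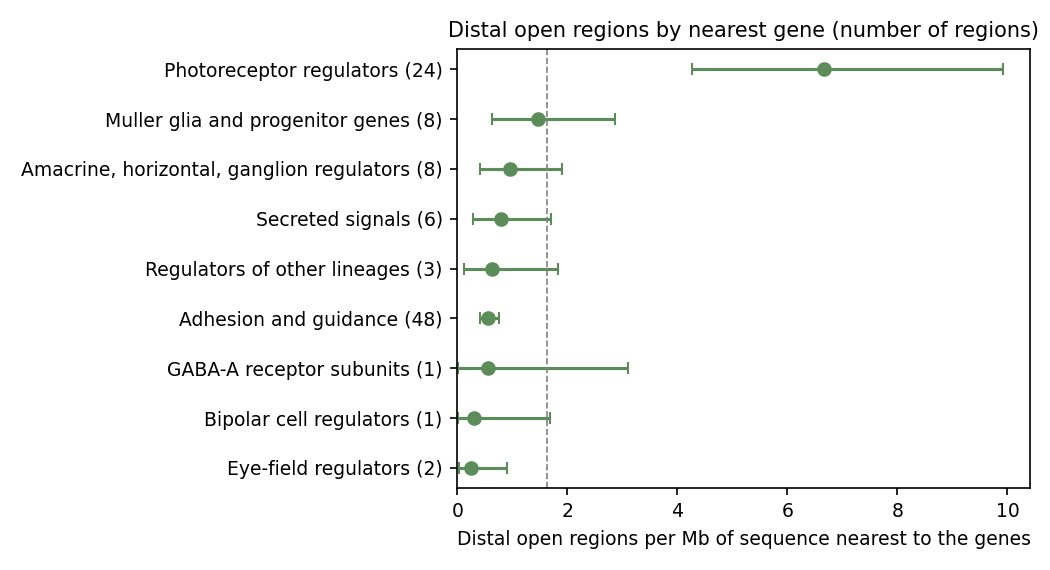
Distal open regions per Mb of distal sequence (x axis) for 9 lists of nearest genes (y axis, number of regions in brackets); points are densities, bars exact 95% Poisson intervals, and the dashed line all distal space at 1.63 per Mb. Photoreceptor regulators lie at 6.66 per Mb and eye-field regulators at 0.251. The densities are not adjusted for distance from the gene.

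Distal regions held a smaller share of the knockout library. They took 37555 wild-type ends, 0.503% of autosomal ends (0.498 to 0.508), and 34271 knockout ends, 0.458% (0.454 to 0.463). Scaled to all ends in autosomal open regions, the summed log2 ratio was -0.07 (-0.09 to -0.05), and over the well placed regions it was -0.08 (-0.11 to -0.06). The 48 poorly placed regions stood at 0.03 (-0.04 to 0.10). The share of autosomal ends in open regions of any kind was also lower in the knockout, 18.8% against 19.6% in wild type, and of its well placed reads 9.41% repeated a position and strand, against 11.04%. The part of these library differences in the distal ratio was not tested.
Per region, the median log2 ratio was -0.10, and 834 of 1410 regions (59.1%) were below 0. That share was 55.1% for regions 1 to 50 kb out, 53.0% inside genes, 46.5% at gene ends and 51.0% over all. The median was -0.05 for regions 1 to 50 kb out, -0.03 inside genes, 0.02 at gene ends and -0.01 over all 23711. By strength, the summed distal ratio was -0.11 (-0.15 to -0.08) for 20 to 49 ends, -0.08 (-0.13 to -0.03) for 50 to 99 and -0.02 (-0.05 to 0.02) for 100 or more. Regions 1 to 50 kb out, in the same order, stood at -0.07 (-0.09 to -0.05), -0.03 (-0.05 to -0.002) and -0.03 (-0.05 to -0.01). With 100 or more ends they were thus no higher than the distal ones. Gene-end regions of 100 or more ends stood at 0.03 (0.02 to 0.03). The summed ratio was below 0 on 18 of 19 autosomes, lowest on chromosome 7 at -0.20 (-0.31 to -0.09). These include chromosome 2 at -0.0001 (-0.08 to 0.07), and many of the intervals span 0. On chromosome 9, which holds 13 of the poorly placed regions, it stood at 0.02 (-0.08 to 0.11). The chromosomes come from the same 2 libraries, so they are not replicates.

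At 2-fold, 61 distal regions (4.33%) were lower in the knockout, against 1.70% of all 23711 regions and 2.65% of those 1 to 50 kb out. A further 27 (1.91%) were higher, against 1.10% and 1.58%. All of them had 20 to 49 ends. Among regions of that strength 5.66% of the distal ones were lower, against 3.64% of all, and 2.50% were higher, against 2.36%. Of the 332 distal regions with at least 50 ends, 0 passed 2-fold in either direction (0.115% and 0.0768% of all regions of that strength did).
Of those 332, the lowest ratio was at chr10:97159351-97159800, 239 kb from Gm46240, with 37 wild-type and 19 knockout ends (-0.89, -1.78 to -0.07). A pair of regions near B3gnt2, a glycosyltransferase gene, had 34 and 19 ends and 36 and 21, and one near Shisa3 had 42 and 24. At the other extreme a region 176 kb from Pex2, a peroxisome gene, had 24 and 39 ends (0.75, -0.01 to 1.56), as did one 71.9 kb from Slc39a11. Apart from the region near Gm46240, the intervals of these extremes span 0.

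**Figure D5:**
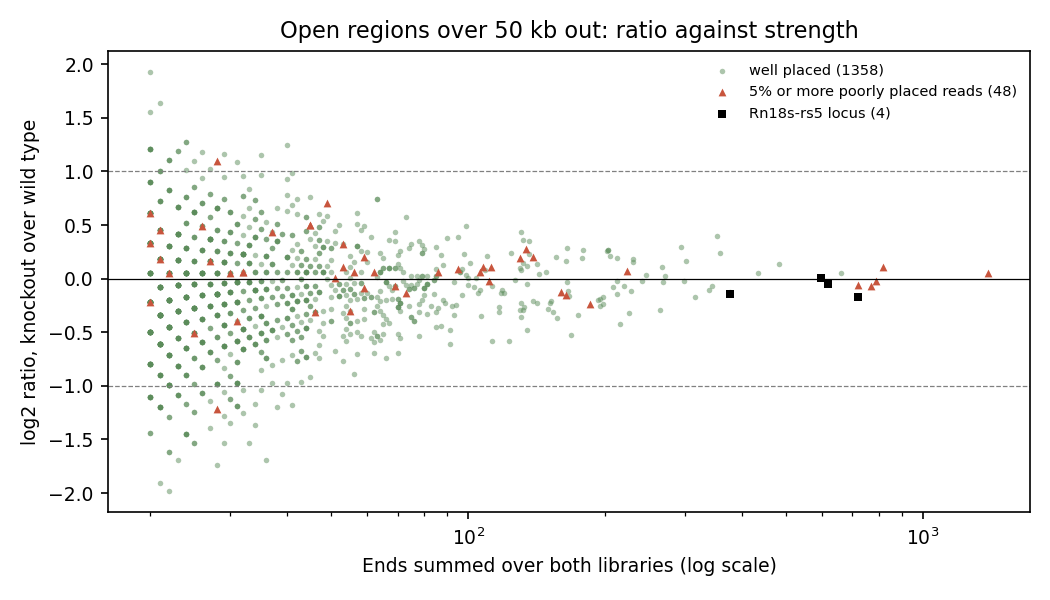
Log2 ratio, knockout over wild type (y axis), against ends summed over both libraries (x axis, log scale) for each of the 1410 distal regions, with poorly placed and Rn18s-rs5 regions marked; dashed lines are 2-fold. The spread narrows with strength, and no region with at least 50 ends lies past 2-fold.

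Called in each library alone at equal depth, 1237 distal regions (87.7%) overlapped a region called in wild type and 1153 (81.8%) one called in the knockout. Both libraries called 1038, wild type alone 199, the knockout alone 115 and neither 58. Over all 23711 regions the same counts were 18812, 2394, 1494 and 1011. The knockout library gave fewer calls throughout, 23828 against 26591, and of all 23711 regions 89.4% were called in wild type and 85.6% in the knockout. Regions 1 to 50 kb out behaved alike, at 87.0% and 81.5%. Those inside genes were lower than the distal ones, at 84.0% and 78.1%, and gene-end regions stood at 94.96% and 93.8%.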

How the data were processed

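ATAC-seq was analysed from 2 deposited files of aligned reads, 1 per genotype. Per the submitters' processing notes the tools were bedtools 2.23.0, BWA and Trimmomatic 0.33, and the build GRCm38 (mm10). The sources used here give neither the BWA version nor a duplicate filter. In the deposited files the score is each read's mapping quality, and the other columns as deposited give its coordinates; the authors deposited no counts. Reads with a score of at least 10 were reduced to their 5′ end, shifted by 4 bp on the plus and -5 bp on the minus strand, and counted once per position and strand. Depth was 7635799 and 7646373 ends.

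Regions were called as described in the report, in 50 bp steps, with the expected count set by the genome or by the 10000 bp around a window, whichever was larger. Genes came from a RefSeq table of GRCm38.p6. Summed ratios were scaled to ends in all autosomal open regions. Python 3.11.15, numpy 2.4.6, scipy 1.17.1 and pandas 2.3.3 were used, and the calling and intervals were tested on simulated data. No genome sequence was used here, so motifs were searched in RefSeq promoter windows and not in the regions.

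The members and lists were chosen with earlier results of these data known. Regions named were the 10 with most ends, the 5 farthest, the 5 highest and 5 lowest ratios with at least 50 ends, the densest clusters, the 10 genes with most regions and the 2 strongest of each gene list, and not all of them are printed. The split by placement, the 15 strongest well placed regions, the miRNA loci, the motifs, the promoters shown, and the regions near Otx2 and Thrb were chosen after seeing the data.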

Additional observations from a re-analysis of the deposited data

How the results depend on the processing

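No test was possible with 1 library per genotype, and most regions had 20 to 49 ends, which gives single-region ratios wide counting intervals. No paired analysis was possible because each genotype has 1 library. No alternative turned the direction of the summed or median ratio. The summed log2 ratio of -0.07 became -0.13 scaled to all autosomal ends, -0.051 with the trimmed mean of M values, -0.036 with all reads kept, -0.041 with at least 50 ends and -0.11 with no minimum. The median of -0.10 became -0.16 and -0.075 under these scalings, -0.066 with at least 50 ends, -0.15 with no minimum and -0.073 in 500 bp around the middle. Regions 2-fold lower numbered 453 with no minimum and 0 with at least 50 ends, and those higher 158 and 0. The region count was 332 with at least 50 ends, 3899 with no minimum, 796 over 100 kb and 301 with distance to every gene, and the density 0.383, 4.50 and 1.17 per Mb for the first 3, or 1.39 with a Poisson p under 1e-07. Regions beside a noncoding gene end made up 17.2%, 8.62% and 8.42% for the same 3. The wild-type and knockout shares of ends were 0.970% and 0.891% with all reads kept, 0.480% and 0.436% at mapping quality 30, and 0.437% and 0.395% without poorly placed and ribosomal regions, a setting chosen after seeing the data. The other 30 of 61 values stayed within the interval of the main value or, for counts, within 1.5 times it. For the median ratio, which has no interval, the shift allowed was that of the summed ratio. The counts so kept spanned 42 to 84 for regions 2-fold lower and 18 to 37 for those higher. Under each scaling the distal median was the lowest of the 4 classes, while that of gene ends was 0.02, -0.04 scaled to all autosomal ends and 0.04 with the trimmed mean.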

Other observations

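Distal regions outside the choice had the same sign of ratio. On chromosome X, 80 distal open regions held 939 wild-type and 810 knockout ends, a log2 ratio of -0.15 (-0.29 to -0.02), and 32 of them had at least 20 ends. The 2489 autosomal distal regions with fewer than 20 ends held 17426 and 14649 ends, a log2 ratio of -0.19 (-0.22 to -0.16). Both are values without a replicate check. The X ratio is scaled to ends in autosomal open regions, and no other X regions are given beside it. Regions of other classes with fewer than 20 ends are not given either. Over all classes, autosomal regions of 20 to 49 ends also stood below 0, at -0.05 (-0.06 to -0.04).

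Among the genes nearest to at least 5 distal regions, the interval of the summed log2 ratio lay below 0 at Tmem161b (245 wild-type and 180 knockout ends; -0.39, -0.67 to -0.10), Ncam1, a neural cell adhesion gene (165 and 118; -0.42, -0.78 to -0.07), Pik3c3 (141 and 99; -0.45, -0.84 to -0.07) and Celf4 (101 and 69; -0.49, -0.95 to -0.03). At no gene with at least 5 regions did it lie above 0, and the highest ratio of these was at Map3k7 (66 and 86; 0.44, -0.04 to 0.93). Of the 21 genes with 4 regions and most ends, the interval excluded 0 at Chd2 (353 and 286; -0.24, -0.47 to -0.02) and at Topaz1, where 3 of the 4 were well placed (61 and 83; 0.50, 0.01 to 1.005). These genes were picked after their values were seen, and the intervals are not adjusted for the number of genes looked at. The summed log2 ratio of all distal regions was itself -0.07.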
